A study of Mus musculus with 8 samples.

Results

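The genes described here encode the non-collagen part of the extracellular matrix and the enzymes that remodel it. They comprise adhesive and matricellular glycoproteins, the proteins of elastic fibers and microfibrils with the oxidases that cross-link them, basement membrane proteins, hyaluronan synthesis with its proteoglycans, small leucine-rich proteoglycans, and matrix proteinases with their inhibitors. They came from a list of 53 genes, and a probe was counted as a member where its accession mapped to a listed gene. Of the 53 genes, 52 had at least 1 probe, out of 19096 genes named on the array, and these 52 genes had 76 probes. No probe matched *Lamc1*, which encodes the γ1 chain of laminin. The list was made with the lower signal of *Nepn* in the SIRT1 KO hearts already known from these arrays, so its values are given as a description, with no test.

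The samples were hearts of C57BL/6 embryos (C57BL/6J in the study's methods) at E18.5, 4 WT and 4 SIRT1 KO, with 1 heart per one-color Agilent whole mouse genome array. The knockout is a germ-line loss of *Sirt1*, which encodes a NAD-dependent protein deacetylase, in the whole body, so every cell of the embryo carries it, and neither group received a treatment. The labels name the hearts as separate samples and do not say whether littermates are among them. Signals are given as log2 of the background-subtracted intensity relative to the 75th percentile of the array, so that 0 is a signal equal to that percentile, and a difference is always the mean of the hearts labelled SIRT1 KO minus the mean of the WT hearts. Where a gene has more than 1 probe, the brightest tested one stands for it, and levels of different probes are not compared, since each probe hybridizes with its own efficiency.

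The extracellular matrix is the network of secreted proteins and sugars that holds cells in place, stores growth factors and carries force between cells. In the fetal heart it is laid down mainly by fibroblasts and other mesenchymal cells, while laminins, nidogens and perlecan form the thin basement membrane that wraps each cardiomyocyte and lines each vessel. The valves and the vessel walls hold the heart's hyaluronan-rich matrix and its elastic fibers, and proteinases of the MMP and ADAMTS families cut these components as the tissue is reshaped.

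All 6 cardiomyocyte markers were well above background on every array. Their summed signal was 839 to 911 times the 75th percentile in the WT hearts and 757 to 976 times in the hearts labelled SIRT1 KO. In this and the other sums the brightest probes weigh most. The liver markers summed to between 4.12 and 13.6 in the WT hearts and between 5.02 and 60.7 in the hearts labelled SIRT1 KO, with replicates 1 and 4 the highest. The corresponding sums, WT first, were 21.1 to 26.3 and 18.8 to 22.9 for endothelial and endocardial markers, 145 to 178 and 139 to 194 for smooth muscle and pericyte markers, and 509 to 557 and 440 to 537 for erythroid markers. Lung markers (0.0362 to 0.111 and 0.0795 to 0.138) and thymus markers (0.0280 to 0.101 and 0.0371 to 0.0599) were low, with 3 genes of each list well above background on 1 to 3 arrays and the others on none, so that none of them was tested, and no gene of the 5 other lists passed the threshold. The 4 WT arrays lay on 1 slide scanned on 1 day and the 4 SIRT1 KO arrays on the other slide and day, so genotype cannot be told apart from slide or from scan day. The WT hearts gave 0.04 ± 0.19 on the brighter *Sirt1* probe and those labelled SIRT1 KO gave 0.58 ± 0.14 (mean ± SD, n = 4 each), and the other probe differed by -0.11 (limma adjusted p = 0.589). The brighter probe was thus higher past the threshold in the hearts labelled SIRT1 KO (0.54, limma adjusted p = 0.0323), with no overlap of the groups. Neither probe was lower past the threshold, and the *Sirt1* signal neither bears out nor refutes the label. The position of both probes against the deleted part of the gene was not analysed here, and the genotypes, with every direction drawn from them, are those of the labels. In bulk tissue a lower signal from fewer cells of a type and from less RNA per cell cannot be told apart.

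Of the 52 genes with a probe, 51 were tested, and 50 of these were well above background on all 8 arrays with their brightest tested probe. The exception was *Nepn*. *Fbln5*, which encodes fibulin 5, an organizer of elastic fibers, had 1 probe that was well above background on no array and was not tested. Dimmer probes of *Prelp* (A_51_P439846) and *Vcan* (A_52_P1044655) were also well above background on no array, and a dimmer *Tnc* probe (A_52_P355169) was so on 1 WT array. These 3 genes are represented by other probes.

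Most matrix genes differed little between the genotypes. The difference lay within 0.5 of 0 on the log2 scale in 49 of the 51 genes and within 0.2 in 39. The genes outside 0.5 were *Nepn*, which was lower in the hearts labelled SIRT1 KO, and *Spp1*, which encodes osteopontin and had the higher signal there. Apart from *Nepn*, none of the 50 other genes passed an adjusted p of 0.05 with limma, against 4.58% of all 13594 genes tested (3.69% higher and 0.897% lower). This count moved with the processing. With normexp background correction or with median scaling, *Adamts5*, *Aspn*, *Fn1* and *Spp1* passed, and without scaling 10 genes did. Of all 25615 probes, 2566, 1904 and 6352 passed with these 3 settings. With limma 7 of the 50 had an unadjusted p under 0.05, 2 higher and 5 lower, against 20.4% of all genes (11.8% higher and 8.53% lower). By the methods' analysis of variance, 7 again had an unadjusted p under 0.05, against 20.6% of all genes, and 0 passed once Benjamini-Hochberg adjustment was applied, against 1.99%. The 4 values of one genotype lay wholly above those of the other in 6 of these 50 genes, against 13.9% of all genes. *Spp1* was the 1 that was higher in the hearts labelled SIRT1 KO, against 8.36% of all genes, and *Fn1*, *Sparc*, *Ogn*, *Aspn* and *Adamts5* were the 5 that were lower, against 5.57%. The 50 genes had a median difference of -0.03, with 21 higher and 29 lower, beside a median of -0.01 over all genes tested, of which 48.4% were higher and 51.6% lower. The split depended on the scaling between arrays. It was 10 higher and 40 lower with median scaling, which put the median of all probes at -0.12, and 3 higher and 47 lower without scaling, which put it at -0.21.

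**Figure D1:**
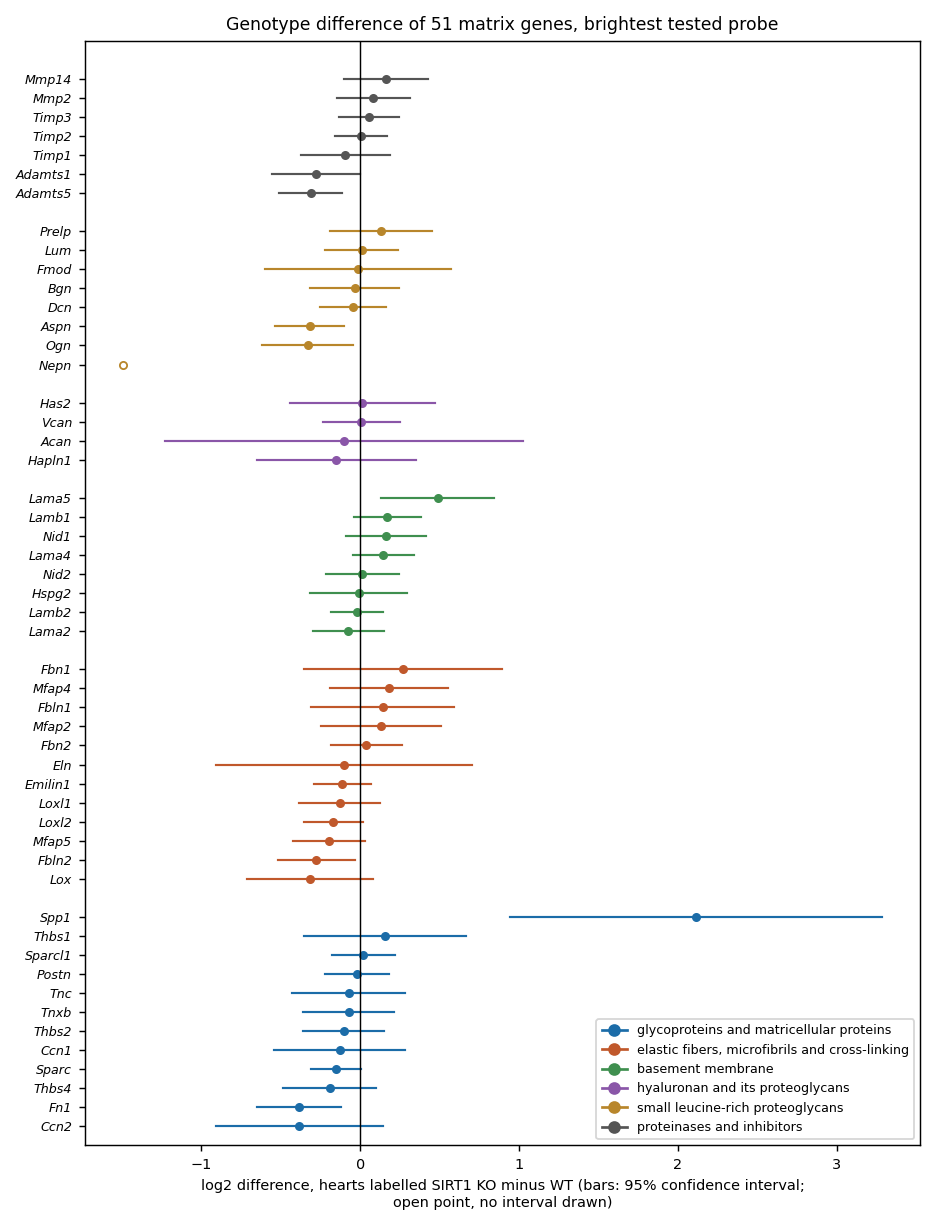
Log2 difference of the 51 tested matrix genes between hearts labelled SIRT1 KO and WT, grouped by role. Points are the fitted differences on the brightest tested probe and bars are 95% confidence intervals (n = 4 hearts per genotype); *Nepn*, whose difference was known when the list was made, has an open point and no interval. Apart from *Nepn* at -1.497 and *Spp1* at 2.12, all points lie within 0.5 of 0.

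Among the 8 small leucine-rich proteoglycans of the list, *Nepn* had the largest fitted difference with the main settings and *Aspn* and *Ogn* the next. *Nepn* encodes nephrocan, a secreted member of the family that has been described as an inhibitor of TGF-β signaling in cultured cells. Its probe was well above background in all 4 WT hearts and in 1 of the 4 hearts labelled SIRT1 KO. The log2 signal was -3.70, -3.60, -3.71 and -3.55 in WT replicates 1 to 4. In replicates 1 to 4 labelled SIRT1 KO it was -4.32, -5.39, -5.41 and -5.43. The groups did not overlap. Replicate 1 labelled SIRT1 KO, the one above background, lay between the WT hearts and the other 3, and the lowest signals well above background on the 4 SIRT1 KO arrays were -5.57, -5.79, -5.31 and -5.86. Of the 3 hearts not flagged as well above background, only replicate 3 lay below the lowest such signal of its array. By these flags the fitted difference of -1.497 rests on 3 values not well above background and is not a measured fold. It lay between -1.77 and -1.40 with 1 heart left out and was -0.34 with the normexp background correction. With that correction *Aspn* was at -0.35 and *Ogn* at -0.32, so *Nepn* no longer ranked first.

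The promoters of *Nepn*, *Aspn* and *Ogn* are shown because these are the 3 listed small leucine-rich proteoglycan genes whose WT and SIRT1 KO values do not overlap, and that of *Spp1* because it had the largest positive difference. Each is the run of 250 bases before the annotated start on the plus strand, from RefSeq for GRCm38.p6. Capitals mark TATAAA, or its reverse complement, the letters of a TATA box. The windows are chr10:52391358-52391607 for *Nepn*, chr13:49544193-49544442 for *Aspn*, chr13:49607765-49608014 for *Ogn* and chr5:104434861-104435110 for *Spp1*, the first of 2 listed promoters of that gene.
Nepn: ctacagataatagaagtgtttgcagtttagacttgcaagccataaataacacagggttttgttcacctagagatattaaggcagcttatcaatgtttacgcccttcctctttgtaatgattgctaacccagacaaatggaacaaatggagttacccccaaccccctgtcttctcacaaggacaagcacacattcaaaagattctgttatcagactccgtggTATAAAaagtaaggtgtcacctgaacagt
Aspn: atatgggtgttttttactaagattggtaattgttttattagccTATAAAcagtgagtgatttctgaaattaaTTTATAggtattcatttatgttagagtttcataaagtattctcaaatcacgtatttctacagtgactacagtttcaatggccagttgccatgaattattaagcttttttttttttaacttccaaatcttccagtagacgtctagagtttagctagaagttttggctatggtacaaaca
Ogn: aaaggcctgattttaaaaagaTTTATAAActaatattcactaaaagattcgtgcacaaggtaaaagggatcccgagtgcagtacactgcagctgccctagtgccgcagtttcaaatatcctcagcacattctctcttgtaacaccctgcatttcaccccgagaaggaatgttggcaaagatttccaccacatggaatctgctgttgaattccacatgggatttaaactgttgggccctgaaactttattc
Spp1: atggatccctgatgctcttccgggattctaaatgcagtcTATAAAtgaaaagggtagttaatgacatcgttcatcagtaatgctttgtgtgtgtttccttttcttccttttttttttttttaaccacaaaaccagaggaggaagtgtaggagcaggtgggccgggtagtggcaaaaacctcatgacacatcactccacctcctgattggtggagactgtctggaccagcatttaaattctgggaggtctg
In *Nepn* the letters begin 29 bases before the start, where a TATA box is usually found. In *Aspn* they begin 207 and 178 bases before it, the second on the other strand. In *Ogn* an antisense and a sense match overlap, beginning 229 and 227 bases before it, and in *Spp1* the match begins 211 bases before it. Over all 32851 promoters of this length, 12.4% held TATAAA on either strand. Of the member genes, 34 had a promoter entry, and 10 of their 40 promoters (25%), belonging to 9 genes, held it. On the sense strand, starting 40 to 20 bases before the start, it was found in 1.99% of all promoters and in those of *Adamts1*, *Ccn1*, *Nepn* and *Postn*. A match describes letters only.

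*Aspn* encodes asporin and *Ogn* encodes osteoglycin, also called mimecan, both collagen-binding proteins of connective tissue. The log2 signal of *Aspn* was 0.64, 1.04, 0.79 and 0.77 in the WT hearts and 0.60, 0.42, 0.44 and 0.51 in the hearts labelled SIRT1 KO. All 4 WT hearts were above all 4 SIRT1 KO hearts, although WT replicate 1 and SIRT1 KO replicate 1 were only narrowly apart. The difference was -0.32 (standard error 0.10, 95% confidence interval -0.54 to -0.10), 1.25-fold lower, and did not pass the threshold (limma adjusted p = 0.101). The log2 signal of *Ogn* was 3.44, 3.28, 3.25 and 3.33 in the WT hearts and 3.22, 2.98, 3.15 and 2.63 in the hearts labelled SIRT1 KO. Again the groups did not overlap, with SIRT1 KO replicate 4 the lowest. The difference was -0.33 (standard error 0.13, 95% confidence interval -0.62 to -0.04), 1.26-fold lower, and did not pass the threshold either (limma adjusted p = 0.177).

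*Aspn* and *Ogn* lie in 1 cluster on chromosome 13, in the order *Ecm2*, *Aspn*, *Omd*, *Ogn*. *Ecm2*, which encodes a related matrix protein, differed by 0.11 (limma adjusted p = 0.587), and *Omd*, which encodes osteomodulin, was not tested because its signal was well above background on too few arrays. *Nepn* stands apart on chromosome 10 between *Gopc* and *Nus1*, neither of which belongs to the family. The remaining 5 listed members of the family were near 0. *Dcn* (decorin) and *Lum* (lumican), neighbors on chromosome 10 that regulate the assembly of collagen fibrils, differed by -0.05 and 0.01. *Bgn* (biglycan), a close relative of decorin, differed by -0.03. *Prelp*, which anchors basement membranes to connective tissue, and its neighbor on chromosome 1, *Fmod* (fibromodulin), differed by 0.13 and -0.02. In all 5 the groups overlapped. Of 8 further genes of the family outside the list, 2 were tested and neither passed the threshold. *Epyc* (epiphycan) differed by 0.75 (limma adjusted p = 0.423). *Nyx* (nyctalopin) reached the filter with 1 WT and 3 SIRT1 KO arrays well above background. Its fitted difference of 0.62 rests on WT values mostly at background and is not a measured fold.

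The 7 fibroblast markers, all well above background on every array, summed to between 184 and 223 times the 75th percentile in the WT hearts and to between 182 and 213 times in the hearts labelled SIRT1 KO, and none passed the threshold. The 6 epicardial markers, also well above background on every array, summed to 14.2 to 17.1 in the WT hearts and 8.37 to 14.5 in the hearts labelled SIRT1 KO. *Msln*, much the brightest of the 6, weighs most in this sum. All 6 were fitted lower, from -0.07 for *Tbx18* to -0.68 for *Upk1b*, against 51.6% of all genes, and none passed the threshold. The part of fibroblasts or epicardial cells in the differences of *Nepn*, *Aspn* and *Ogn* was not tested.

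**Figure D2:**
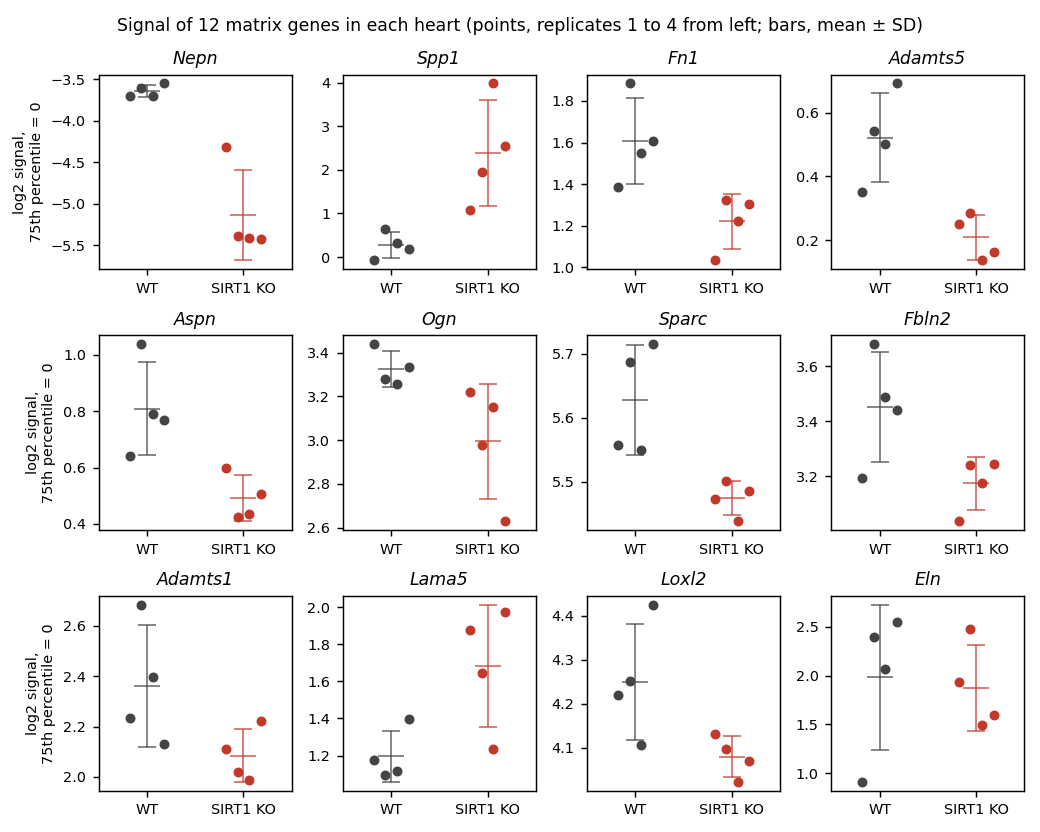
Log2 signal of 12 matrix genes in each heart, relative to the 75th percentile of the array, with the vertical axis set for each gene. Points are replicates 1 to 4 from left, and bars are the mean ± SD (n = 4 hearts); 3 of the 4 *Nepn* points labelled SIRT1 KO are not well above background. The groups do not overlap in *Nepn*, *Spp1*, *Fn1*, *Adamts5*, *Aspn*, *Ogn* and *Sparc*, and *Eln* is shown for its spread among the WT hearts.

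Among the 12 glycoproteins and matricellular proteins, the ones that stood out were *Spp1*, higher in the hearts labelled SIRT1 KO, and *Fn1*, lower on each of its 3 probes. *Spp1* encodes osteopontin, a phosphoglycoprotein of bone matrix that is also made by activated macrophages and injured tissue. Its log2 signal was -0.07, 0.65, 0.31 and 0.18 in the WT hearts and 1.07, 1.95, 3.98 and 2.54 in the hearts labelled SIRT1 KO. All 4 SIRT1 KO hearts were above all 4 WT hearts and spread widely, from replicate 1 to the much higher replicate 3. The difference was 2.12 (standard error 0.52, 95% confidence interval 0.94 to 3.29), 4.34-fold higher, with an adjusted p of 0.053 from limma that narrowly missed the threshold. The SD was 0.30 among the WT hearts and 1.22 among the hearts labelled SIRT1 KO. *Spp1* passed an adjusted p of 0.05 in 8 of 19 alternatives. Among these was the replicate number as a block (limma adjusted p = 0.0488), although no label ties the numbers to pairs. With 1 heart left out it passed without SIRT1 KO replicate 1 (2.55) and without SIRT1 KO replicate 3 (1.58), and the 6 other fits gave adjusted p between 0.0877 and 0.118 from limma.

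The 6 macrophage markers were well above background on every array. They summed to 2.19 to 3.11 in the WT hearts and 2.10 to 3.40 in the hearts labelled SIRT1 KO. SIRT1 KO replicate 3, the heart with the highest *Spp1*, was also the highest in this sum. SIRT1 KO replicate 1 was the lowest in the sum (2.10), yet its *Spp1* signal of 1.07 was above every WT heart. WT replicate 2 had a sum of 3.11, above SIRT1 KO replicates 2 and 4 (2.86 and 2.76), with a lower *Spp1* signal (0.65). *Cd68*, a lysosomal protein of macrophages, differed by 0.64 and *Lyz2*, their lysozyme, by 0.25, and neither passed the threshold (limma adjusted p = 0.133 and 0.537). *Mrc1*, the mannose receptor of tissue macrophages, had a difference in the other direction, -0.41 (limma adjusted p = 0.143). *Csf1r*, the receptor for the macrophage growth factor, *Adgre1*, which encodes F4/80, and *C1qa*, a complement subunit, differed by 0.02, 0.11 and -0.01. The part of these cells in the *Spp1* difference was not tested.

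*Fn1* encodes fibronectin, the dimeric glycoprotein through which integrins bind the matrix. On the brightest probe (A_51_P100856) the log2 signal was 1.38, 1.88, 1.55 and 1.61 in the WT hearts and 1.04, 1.32, 1.22 and 1.31 in the hearts labelled SIRT1 KO. On a dimmer probe (A_52_P11817) it was -0.77, -0.35, -0.60 and -0.56 against -1.21, -0.85, -1.05 and -1.05. On both probes every WT heart was above every SIRT1 KO heart. The first differed by -0.38 (standard error 0.12, limma adjusted p = 0.104), 1.30-fold lower, and did not pass the threshold. The second fell by 0.47 on the log2 scale (standard error 0.11, 95% confidence interval -0.72 to -0.22, limma adjusted p = 0.0442), 1.38-fold lower, and was the 1 probe to pass among the 71 tested of members other than *Nepn*, against 4.88% of all 25615 probes. It passed in 2 of the 8 fits that left out 1 heart, namely without replicate 1 of the WT hearts and without replicate 2 of the SIRT1 KO hearts, and had adjusted p between 0.0628 and 0.112 from limma in the 6 others. Nor did it pass with no filter on dim probes or by the methods' analysis of variance. On the third probe (A_52_P299974) the groups overlapped, with a difference of -0.41 (standard error 0.17, limma adjusted p = 0.203). The differences of the dimmer probes from the brightest were -0.08 (95% confidence interval -0.25 to 0.08) and -0.02 (-0.34 to 0.29).

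*Sparc* encodes osteonectin, a collagen-binding protein with a role in collagen deposition. On its brightest probe (A_52_P101852) the log2 signal was 5.56, 5.69, 5.55 and 5.72 in the WT hearts and 5.47, 5.50, 5.44 and 5.48 in the hearts labelled SIRT1 KO. The groups did not overlap, and the SIRT1 KO hearts were tightly grouped (SD 0.03, against 0.09 in the WT hearts). The difference was nevertheless small, -0.15 (standard error 0.07, limma adjusted p = 0.246), and did not pass the threshold. A second probe (A_51_P431087) differed by 0.02 with overlapping groups.

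The other 9 genes of this group had differences from -0.38 to 0.15, none with an unadjusted p under 0.05. At the lower end was *Ccn2*, the connective tissue growth factor, with a 95% confidence interval from -0.91 to 0.14, and at the upper end *Thbs1*, a thrombospondin that activates latent TGF-β, with an interval from -0.36 to 0.66. *Ccn1*, a matricellular relative of *Ccn2*, differed by -0.13. *Thbs2* and *Thbs4*, further thrombospondins, differed by -0.10 and -0.19. *Postn* (periostin), a marker of heart fibroblasts and valves, differed by -0.02, with a 95% confidence interval from -0.22 to 0.18. *Tnc* and *Tnxb*, tenascins, each differed by -0.07, and *Sparcl1*, a relative of *Sparc*, by 0.02.

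Of the 13 listed genes of elastic fibers, microfibrils and their cross-linking, 12 were tested, with differences from -0.32 to 0.27 and a median of -0.11. *Fbln2* encodes fibulin 2, which links elastin, fibrillin and proteoglycans and is abundant in the valves. Its log2 signal was 3.20, 3.68, 3.49 and 3.44 in the WT hearts and 3.04, 3.24, 3.18 and 3.25 in the hearts labelled SIRT1 KO. WT replicate 1, the lowest WT heart, lay among the SIRT1 KO hearts, and the other 3 were above them all. The difference was -0.28 (standard error 0.11, 95% confidence interval -0.52 to -0.03) and did not pass the threshold (limma adjusted p = 0.185).

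*Loxl2* encodes a lysyl oxidase, one of the copper enzymes that cross-link collagen and elastin. On the brightest probe (A_52_P480351) its log2 signal was 4.22, 4.25, 4.11 and 4.42 in the WT hearts and 4.13, 4.10, 4.02 and 4.07 in the hearts labelled SIRT1 KO. The groups overlapped by WT replicate 3 alone, which lay below SIRT1 KO replicate 1. The difference was -0.17 (standard error 0.08, limma adjusted p = 0.271), and the second probe (A_51_P275949) gave -0.18. *Lox*, the founding lysyl oxidase, differed by -0.32 and *Loxl1* by -0.13, both with overlapping groups.

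The structural genes of the fibers had wide intervals. *Eln*, which encodes elastin, differed by -0.10 with a 95% confidence interval from -0.91 to 0.70. *Fbn1*, which encodes fibrillin 1, the main protein of microfibrils, differed by 0.27 with an interval from -0.36 to 0.89, and its second probe gave 0.32. *Fbn2* (fibrillin 2), a form made mainly before birth, differed by 0.04. The microfibril-associated genes *Mfap2*, *Mfap4* and *Mfap5* differed by 0.13, 0.18 and -0.20, *Fbln1* (fibulin 1) by 0.14 and *Emilin1*, a glycoprotein at the surface of elastic fibers, by -0.11.

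Among the 8 tested basement membrane genes, 5 were higher and 3 lower. *Lama5*, which encodes the laminin α5 chain found in epithelial and mature vascular basement membranes, had the largest difference. Its log2 signal was 1.18, 1.09, 1.12 and 1.40 in the WT hearts and 1.88, 1.65, 1.24 and 1.98 in the hearts labelled SIRT1 KO. Of the SIRT1 KO hearts, replicates 1, 2 and 4 were above every WT heart and replicate 3 lay among them. The difference was 0.49 (standard error 0.16, 95% confidence interval 0.13 to 0.84), 1.40-fold higher, and did not pass the threshold (limma adjusted p = 0.121). Without SIRT1 KO replicate 3 it was 0.64 and passed (limma adjusted p = 0.0195).

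*Lamb1*, which encodes the laminin β1 chain, had log2 signals of 3.02, 2.97, 3.03 and 2.99 in the WT hearts and 3.27, 3.0, 3.05 and 3.37 in the hearts labelled SIRT1 KO. The WT hearts lay close together, and SIRT1 KO replicates 1 and 4 were the highest of all. The difference was 0.17 (standard error 0.09, limma adjusted p = 0.33), and it was -0.05 without scaling. *Lama4*, the α4 chain of the vascular and muscle laminins, differed by 0.15, and 1 of its 2 dimmer probes (A_52_P7554) by 0.17 with the SIRT1 KO hearts all above the WT hearts (limma adjusted p = 0.277). *Lama2*, the α2 chain of the cardiomyocyte basement membrane, differed by -0.08 and *Lamb2*, the β2 chain, by -0.02. *Nid1* and *Nid2*, the nidogens that join laminin to collagen IV, differed by 0.16 and 0.01, and *Hspg2* (perlecan), the heparan sulfate proteoglycan of basement membranes, by -0.01.

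The 4 genes of hyaluronan and its proteoglycans had differences between -0.15 and 0.01, and none had an unadjusted p under 0.05. *Hapln1* encodes the link protein that fastens proteoglycans to hyaluronan and is needed for valve and septum formation. On its brighter probe (A_51_P101787) the log2 signal was -3.64, -3.43, -3.45 and -3.41 in the WT hearts and -3.77, -3.03, -4.25 and -3.49 in the hearts labelled SIRT1 KO. The SIRT1 KO hearts lay on both sides of the WT hearts, with replicate 2 highest and replicate 3 lowest. The difference was -0.15 (95% confidence interval -0.65 to 0.35). On its other probe (A_52_P97258) it was 0.20 (-0.30 to 0.70), with the same replicates highest and lowest among the SIRT1 KO hearts.

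*Acan* encodes aggrecan, the large proteoglycan of cartilage that the fetal valves and outflow tract also contain. Its log2 signal was -3.93, -2.03, -2.64 and -2.33 in the WT hearts and -1.996, -2.19, -3.40 and -3.76 in the hearts labelled SIRT1 KO. The groups overlapped over almost their whole range, with WT replicate 1 the lowest of all 8 hearts. The difference was -0.10 with a 95% confidence interval from -1.23 to 1.02, so that a 2-fold difference in either direction lay inside it. The 8 cartilage markers summed to 1.55 to 1.79 in the WT hearts and 2.08 to 2.65 in the hearts labelled SIRT1 KO. Of these, *Col2a1* and *Col9a2*, cartilage collagens, were higher past the threshold (0.43 and 0.47, limma adjusted p = 0.0283 and 0.0219), and *Matn1*, *Matn3* and *Snorc* were well above background on no array. *Vcan* (versican), the main hyaluronan-binding proteoglycan of the heart, differed by 0.01 with an interval from -0.23 to 0.25, and *Has2*, the synthase that makes hyaluronan in the cushions, by 0.01 with an interval from -0.44 to 0.47.

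Of the 7 proteinases and inhibitors, *Adamts5* and *Adamts1*, which cleave versican and aggrecan, had the largest differences, both lower. The log2 signal of *Adamts5* on its brightest probe (A_51_P233534) was 0.35, 0.54, 0.50 and 0.69 in the WT hearts and 0.25, 0.29, 0.14 and 0.16 in the hearts labelled SIRT1 KO. All WT hearts were above all SIRT1 KO hearts. The difference was -0.31 (standard error 0.09, 95% confidence interval -0.51 to -0.12), 1.24-fold lower, and did not pass the threshold (limma adjusted p = 0.0802). The second probe (A_52_P70231) gave -0.30 (limma adjusted p = 0.161), with the SIRT1 KO hearts overlapping the WT hearts by replicate 2.

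The log2 signal of *Adamts1* on its brightest probe (A_52_P489295) was 2.23, 2.68, 2.40 and 2.13 in the WT hearts and 2.11, 2.02, 1.99 and 2.22 in the hearts labelled SIRT1 KO. WT replicates 1, 2 and 3 were above every SIRT1 KO heart, replicate 1 only narrowly, and WT replicate 4 lay below SIRT1 KO replicate 4. The difference was -0.28 (standard error 0.12, limma adjusted p = 0.234), and the second probe gave -0.22 (limma adjusted p = 0.192). *Mmp2*, a gelatinase, and *Mmp14*, the membrane-bound proteinase that activates it, differed by 0.08 and 0.16. Their inhibitors *Timp1*, *Timp2* and *Timp3* differed by -0.09, 0.01 and 0.06.

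**Figure D3:**
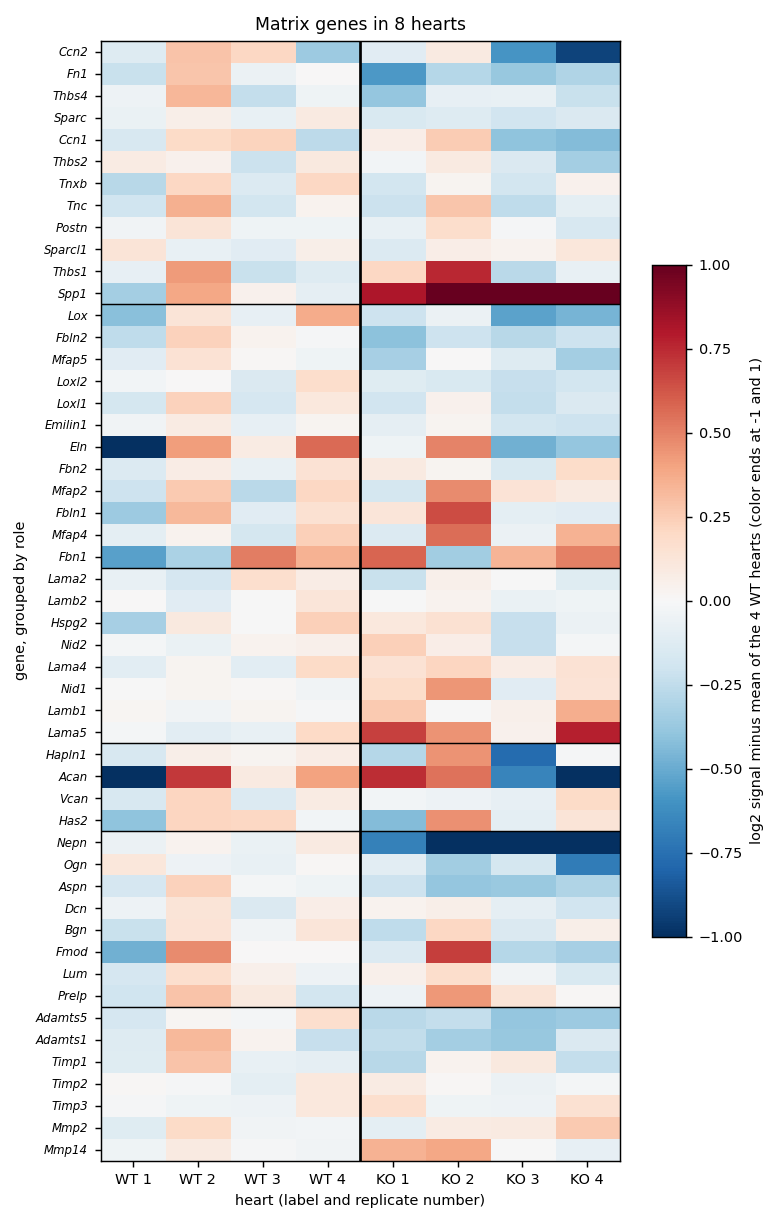
Log2 signal of the 51 tested matrix genes in each of the 8 hearts, as the difference from the mean of the 4 WT hearts, with genes in rows grouped by role. Red is higher and blue is lower, the color ends at -1 and 1, and the black line divides WT from SIRT1 KO hearts. *Spp1* and *Nepn* lie more than 0.5 from the WT mean, in 1 direction, in all 4 SIRT1 KO hearts, while *Eln*, *Acan*, *Fbn1* and *Fmod* vary widely among hearts of 1 genotype.

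The spread between hearts of the same genotype differed from role to role. The median SD within a genotype was 0.17 on the log2 scale over the 51 genes and 0.14 over all 13594 genes. It was 0.35 for hyaluronan and its proteoglycans and 0.22 for elastic fibers and microfibrils, but 0.14 for both the basement membrane genes and the proteinases with their inhibitors. The widest were *Spp1* (0.89), *Acan* (0.86), *Eln* (0.61), *Fbn1* (0.47) and *Fmod* (0.44), and the narrowest was *Sparc* (0.06). *Eln*, *Fbn1* and *Fmod* are named here because of these values. The log2 signal of *Eln* was 0.91, 2.40, 2.07 and 2.55 in the WT hearts and 1.94, 2.47, 1.499 and 1.59 in the hearts labelled SIRT1 KO. WT replicate 1 lay far below the others of its genotype. *Fbn1* was also lowest in WT replicate 1, at 0.85, but unlike *Eln* it was low in WT replicate 2 (1.07) and in SIRT1 KO replicate 2 (1.05), against 1.73 to 1.97 in the 5 other hearts.

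The same hearts were high or low in many of the genes. WT replicate 2 was the highest WT heart in 28 of the 51 genes (54.9%, against 27.2% of all genes), and WT replicate 1 the lowest in 26 (50.98%, against 25.5%). SIRT1 KO replicate 2 was the highest of its genotype in 30 genes (58.8%, against 20.5%), and SIRT1 KO replicate 3 the lowest in 21 (41.2%, against 22.9%). The median deviation of the 51 genes from the mean of their genotype was -0.13 in WT replicate 1, 0.13 in WT replicate 2, 0.13 in SIRT1 KO replicate 2 and -0.09 in SIRT1 KO replicate 3, beside medians between -0.01 and 0.02 over all genes in these 4 hearts. The genes share their arrays and are not independent, so these counts are a description.

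**Figure D4:**
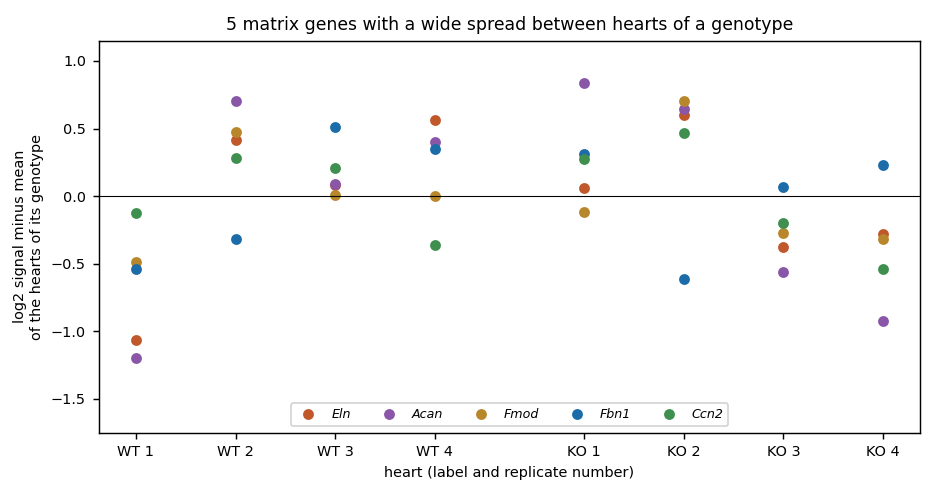
Log2 signal of 5 matrix genes with a wide spread in each heart, as the difference from the mean of the 4 hearts of the same genotype. Each color is 1 gene. *Eln* and *Acan* are lowest in WT replicate 1, *Fmod* and *Ccn2* are highest in WT replicate 2 and SIRT1 KO replicate 2, and *Fbn1* is lowest in WT replicate 1 and SIRT1 KO replicate 2.

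Probes of the same gene often differed in direction. Of the 17 genes with several tested probes, 21 dimmer probes could be set against the brightest one of the gene within each array. The differences of 11 had the same sign as on the brightest probe (52.4%, against 65.6% of 6636 such probes over all genes). None of the 21 differed past the threshold with limma, against 0.814% over all genes, and 3 had an unadjusted p under 0.05, against 1111 of the 6636. The 3 were the *Hapln1* probe, a *Thbs1* probe (A_52_P337092) at -0.94 against 0.15 on the brightest, and a *Mmp14* probe (A_52_P304128) at -0.09 against 0.16. That *Thbs1* probe was well above background on 3 WT arrays and 2 SIRT1 KO arrays only.

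The rest of the matrix was covered by 111 further genes of the same 6 roles, of which 74 were tested. With limma 4 of them passed the threshold, against 4.58% of all genes, 3 higher and 1 lower. The split was 1 higher and 4 lower with median scaling, and 1 higher and 12 lower without scaling. *Adamts14*, which processes procollagen, rose by 0.59 (standard error 0.10, limma adjusted p = 0.0128), 1.51-fold. *Mmp11*, a stromelysin of remodeling stroma, rose by 0.44 (standard error 0.08, limma adjusted p = 0.0167), 1.35-fold. *Ntn1*, which encodes netrin 1, a laminin-related guidance protein, rose by 0.38 (standard error 0.08, limma adjusted p = 0.026), 1.30-fold. In all 3 genes the SIRT1 KO hearts were all above the WT hearts.

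*Adamts8*, a further ADAMTS proteinase, was the 1 lower gene of the 74 past the threshold. Its log2 signal was 1.94, 2.23, 1.71 and 1.95 in the WT hearts and 1.55, 1.02, 0.54 and 1.23 in the hearts labelled SIRT1 KO. The groups did not overlap, and SIRT1 KO replicate 3 was the lowest. The signal fell by 0.87 on the log2 scale (standard error 0.20, 95% confidence interval -1.33 to -0.41, limma adjusted p = 0.0444), 1.82-fold lower. With 1 heart left out, *Adamts14* passed in all 8 fits, *Mmp11* in 6, *Ntn1* in 3 and *Adamts8* in 2, namely without SIRT1 KO replicates 1 or 3. Without WT replicate 2 or without WT replicate 3, *Adamts14* was the 1 gene past the threshold. *Adamts14* did not pass after quantile normalization or cyclic loess, *Mmp11* with median scaling or no scaling, and *Ntn1* with these or with no filter on dim probes. *Adamts8* did not pass after quantile normalization, cyclic loess, no filter on dim probes or by the methods' analysis of variance, and neither *Ntn1* nor *Adamts8* passed with the mean of the probes of a gene.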

How the data were processed

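Embryonic hearts (E18.5), 4 WT and 4 SIRT1 KO, were profiled from 500 ng of total RNA on one-color Agilent arrays. For each spot the authors deposited the intensity from Agilent Feature Extraction with its one-color defaults, after background subtraction and with no scaling between arrays. The file headers name version 12.0.0.7 of this software, and the paper another. The deposited table of the series holds the same intensity values in 100% of the spots.

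Here log2 of the intensity was taken, the 75th percentile of each array (939 to 1033 intensity units in WT, 777 to 906 in SIRT1 KO) was subtracted, control and outlier spots were left out, and spots of a probe were averaged. Probe accessions were matched to RefSeq genes (GRCm38.p6), which named 28223 of 41174 probes. A probe was kept where at least 4 of the 8 arrays were well above background, which left 25615, and these were fitted by lmFit and eBayes of limma 3.58.1 (R 4.3.3, genotype as the only factor), with Benjamini-Hochberg adjustment over all of them and a threshold of 0.05. The methods' analysis of variance was run probe by probe with the same factor, since its other factors are not given in the sources used here. On simulated arrays of 25535 probes the fit recovered 83% of 200 probes changed by a log2 difference of 1, and 7.26% of its calls were unchanged probes. Precision is limited by the number of arrays, 4 for each genotype, and since nothing says how the hearts relate to litters, p-values measure only the spread between these samples.

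Members and gene lists, marker lists included, were chosen with earlier results of these data known. The genes given in full are *Nepn*, members with a probe past the threshold, members whose genotypes do not overlap, the 2 members of each role with the smallest p, members with a probe at background, and other matrix genes past the threshold. The remaining members are given by their differences, and *Eln*, *Fbn1*, *Fmod*, *Ccn2*, *Thbs1* and *Mmp14* were singled out after their values were seen. The 11 marker lists comprised cardiomyocyte, fibroblast, endothelial and endocardial, smooth muscle and pericyte, epicardial, cartilage, lung, liver, thymus, erythroid and macrophage genes. Alternatives changed the scaling, the background correction, the test, the filter on dim probes, the threshold and the probe of a gene, added array weights or a replicate block, or left out each array in turn. Python 3.11.15, numpy 2.4.6, pandas 2.3.3 and matplotlib 3.10.9 were used.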

Additional observations from a re-analysis of the deposited data

Results flagged for a closer look

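In 2 of the 100 sets of 4 hearts (50 genes other than *Nepn*, in 2 genotypes), 1 heart stood far from the others by Dixon's ratio of its gap to the range, and chance alone marks about 1 set in 20. For *Postn* (periostin), WT replicate 2 had a log2 signal of 5.94 against 5.76 to 5.77 in the other WT hearts, a ratio of 0.963. For *Timp1*, WT replicate 2 had 2.49 against 2.09 to 2.14, a ratio of 0.886.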

How the results depend on the processing

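Each slide and scan day held 1 genotype, so a fit with slide as a block could not be made. The list was chosen with the value of *Nepn* known, so its call is no result and is left out of the counts of members. Without *Nepn* the count of member genes past the threshold was 0 with the main settings, 4 with normexp or median scaling, 10 without scaling, 2 with array weights or at an adjusted p under 0.10, 1 with the replicate block, 0 with the methods' analysis of variance, and 0 to 2 with 1 heart left out. Both with normexp and with median scaling the 4 were *Adamts5*, *Aspn*, *Fn1* and *Spp1*. The count of member probes, 2 with the main settings, was 5, 8, 18 and 4 with normexp, median scaling, no scaling and array weights, 4 at an adjusted p under 0.10, 1 without the filter on dim probes, 0 with the analysis of variance, and 1 to 3 with 1 heart left out. The median difference of the member genes was -0.17 with median scaling, -0.25 without scaling, and between -0.12 and 0.01 with 1 heart left out. The count of other matrix genes, 4 with the main settings, was 11 with normexp, 5 with median scaling, 2 with quantile normalization, cyclic loess or no filter on dim probes, 13 without scaling, 10 with array weights, 8 with the replicate block, 10 at an adjusted p under 0.10, and 1 to 6 with 1 heart left out. No probe of a member differed past the threshold from the brightest probe of its gene, except 1, of *Adamts5*, with normexp.

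Over all probes 1250 passed, 81.4% of them higher in the hearts labelled SIRT1 KO. Quantile normalization made this share 63.9% of 1051 probes and cyclic loess 70.4% of 1070, while median scaling made it 35.5% of 1904 and no scaling 10.1% of 6352. The count was 2566 with normexp, 2277 with array weights, 2275 at an adjusted p under 0.10 and 546 with the analysis of variance. Leaving out 1 heart gave counts from 657, when this was replicate 3 of the WT hearts, to 1825, when it was replicate 3 of the SIRT1 KO hearts.

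Among the members given in full, directions reversed in 6 with main differences within 0.2 of 0. *Hapln1* was 0.084 with normexp, *Tnc* 0.011 with normexp and 0.061 with array weights, and *Acan* 0.21 with array weights. *Vcan* was -0.0038 after quantile normalization, -0.13 by median scaling and -0.21 without scaling, *Prelp* was -0.00051 with median scaling and -0.087 without scaling, and *Lamb1* was -0.050 without scaling. With 1 heart left out *Acan* ranged from -0.50 to 0.21, *Vcan* from -0.053 to 0.079, *Tnc* from -0.19 to 0.045 and *Hapln1* from -0.35 to 0.053.

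The study counts its hearts as 4 pairs without saying what a pair shares, the labels do not say that the replicate numbers are these pairs, and the deviations of same-numbered hearts correlated at 0.20, 0.21, 0.06 and 0.14, so the numbers were not taken as pairs. With the replicate number as a block, *Spp1* passed (adjusted p = 0.0488 from limma) and 1185 of all probes did. Each WT heart correlated best with the SIRT1 KO heart of its number, which is a hint of pairing by number that no label states.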
